A study of Mus musculus with 15 samples.

Results

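The promoters of 5 genes tied to neuronal activity, Arc, Bdnf, Ntrk2, Homer1 and Sik1, were followed through a promoter-capture Hi-C data set of hippocampal neurons. Promoter-capture Hi-C ligates and sequences DNA fragments that lie close together in the nucleus and enriches the products that contain a chosen promoter. The members are the listings of the deposited score matrix whose promoter carries one of these 5 gene names, and they number 64 of 36353 listings, a listing being a promoter paired with a fragment. Homer1 had 26 listed fragments, Bdnf 14, Ntrk2 14, Sik1 6 and Arc 4, against a median of 6 over 4429 promoters. As many fragments as Homer1 or more were listed for 2.51% of promoters.

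Nuclei came from hippocampi of mice that carry ArcCreERT2, a tamoxifen-dependent recombinase under the Arc promoter, together with a floxed-stop yellow fluorescent protein reporter at R26R, and whose genotype label is +/+. The protocol describes a dose of 4-hydroxytamoxifen 1 h before contextual fear conditioning. Nuclei were sorted with NeuN and GFP antibodies after hippocampi of 10 to 12 animals were pooled. The 15 libraries form 4 groups, named in the titles as Basal (3 libraries), Early (4 libraries), Late (4 libraries) and Reactivated (4 libraries). Tissue was taken either 1.5 to 2 h after the behavioural task or 5 days after conditioning, when some of the mice were killed and others were first exposed again to the cue. The labels do not tie a group to an interval, do not say how Basal mice were treated and give no ages. The treatment label states a foot shock and no recall for every library, with collection days counting up from 0 to 14 along the sample list, which conflicts with the protocol and was not used. Because recombination depends on the Arc promoter, any selection of nuclei on GFP would act through a member of the gene set. Which gate was applied to each group is not stated here. Chromatin contacts carry no transcript levels, so the neuronal identity of the nuclei could not be checked against marker expression.

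Arc encodes a postsynaptic protein that promotes removal of AMPA receptors from synapses and is transcribed within minutes of neuronal activity. Bdnf encodes brain-derived neurotrophic factor, and Ntrk2 encodes TrkB, its receptor tyrosine kinase. Homer1 encodes a postsynaptic scaffold that binds metabotropic glutamate receptors, with a short activity-induced form that disrupts the scaffold, and Sik1 encodes an inducible kinase that restrains the CREB coactivators of the CRTC family. All are linked to CREB-dependent transcription or synaptic plasticity in the hippocampus.

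RefSeq promoter windows, running from 250 bases before to 50 bases after an annotated start (build GRCm38.p6), were held for 3 of the 5 genes, with 7 for Bdnf, 1 for Ntrk2 and 2 for Homer1. The windows below show how promoters of these genes differ in the core of the cAMP response element, the site of CREB. Capitals mark TGACG or its reverse complement CGTCA, searched on both strands. The coordinates are of GRCm38.p6 and cannot be set against the mm9 fragments of the matrix.
Homer1, chr13:93303507-93303806, plus strand: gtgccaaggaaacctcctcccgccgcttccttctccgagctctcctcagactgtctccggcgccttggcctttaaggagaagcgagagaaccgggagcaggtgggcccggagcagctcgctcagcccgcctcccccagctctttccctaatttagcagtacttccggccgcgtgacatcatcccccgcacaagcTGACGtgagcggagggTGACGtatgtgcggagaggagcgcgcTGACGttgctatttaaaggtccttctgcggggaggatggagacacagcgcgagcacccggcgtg
Bdnf, chr2:109692186-109692485, plus strand: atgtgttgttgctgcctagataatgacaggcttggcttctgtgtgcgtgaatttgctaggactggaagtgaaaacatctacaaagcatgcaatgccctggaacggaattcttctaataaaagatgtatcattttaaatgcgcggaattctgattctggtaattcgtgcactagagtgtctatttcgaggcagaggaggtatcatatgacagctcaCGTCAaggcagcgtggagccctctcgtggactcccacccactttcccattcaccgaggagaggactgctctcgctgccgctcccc
Ntrk2, chr13:58806319-58806618, plus strand: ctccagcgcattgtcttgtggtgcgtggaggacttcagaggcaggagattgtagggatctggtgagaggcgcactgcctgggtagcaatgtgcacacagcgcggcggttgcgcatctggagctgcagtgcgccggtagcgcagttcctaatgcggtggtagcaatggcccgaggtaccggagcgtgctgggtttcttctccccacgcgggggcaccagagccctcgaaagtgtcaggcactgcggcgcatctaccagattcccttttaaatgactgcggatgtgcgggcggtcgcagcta

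The upstream Homer1 window held 3 matches to this partial site, the Bdnf window shown held 1 and the Ntrk2 window 0. The other 6 Bdnf windows and the downstream Homer1 window also held 0. Over the reference, 20.8% of 32851 windows held at least 1 match. The full palindrome TGACGTCA, which contains that partial site, was in none of the 10 windows of these genes and in 1.79% of all windows. CACGTG, an E box, was likewise in 0 of the 10 and in 7.15% of all. AAGCTT, the recognition sequence of HindIII that cuts the chromatin in this assay, occurred in 1 Bdnf window and in the downstream Homer1 window, and in 7.46% of all windows. The matches describe these letters in these windows only.

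Scores are the authors' interaction scores, whole numbers, which ran from 2 to 4869 for these genes, and a pair without a score in a library is given here as 0. The libraries were unequal: Reactivated libraries 1 and 2 had scores for 35 and 388 listings, whereas the other 13 had scores for 1715 to 12133, with median scores from 13 to 310. Libraries of a group also shared fragments unevenly. In 6 pairs (libraries 1 and 2 of Basal, Late and Reactivated, libraries 3 and 4 of Early, Late and Reactivated) the smaller library shared 48.3% to 100% of its fragments with the larger, and in the other pairs within a group at most 16.7%. Each such pair is called a library set below, and with the other libraries standing alone the 15 libraries make 9 sets. The series' design text calls the replicates biological, but no label ties a library to its own pool of animals. The spread between these libraries may therefore in part be technical. For listings, the p-values below rest on a spread estimated over all listings as a trend on the mean score. They do not measure the spread of a listing's own libraries. The p-values of promoter means also draw on an estimate shared between promoters.

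Of the 64 member listings, 19 were scored in a library of Basal, 25 of Early, 24 of Late and 24 of Reactivated. These are 29.7%, 39.1%, 37.5% and 37.5% of the members, beside 27.7%, 41.2%, 38.8% and 35.6% of all listings. Scores in Basal alone were found for 8 member listings (12.5%, against 8.92% of all), in Early alone for 11 (17.2%, against 20.9%), in Late alone for 10 (15.6%, against 19.3%) and in Reactivated alone for 10 (15.6%, against 17.9%). A single group held all the scores of 39 member listings (60.9%, against 67.1% of all), a single library set those of 36 (56.2%, against 65.6%), and a single library those of 19 (29.7%, against 32.7%). Exactly 2 libraries scored 25 (39.1%, against 37.3%), and for 17 of these they were the 2 libraries of 1 set (26.6% of members, against 32.9%). Scores in 3 or more library sets were found for 4 (6.25%, against 11.1%) and in 4 or more libraries for 11 (17.2%, against 16.4%), while 13 were listed also with another promoter (20.3%, against 15.4%). None of the 64 was scored in all 4 groups, beside 1.60% of all listings. Most of the members' shares lay within a few percentage points of those of the whole table. The 143 member scores had a median of 98, and 71 of them exceeded the median score of their own library.

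**Figure D1:**
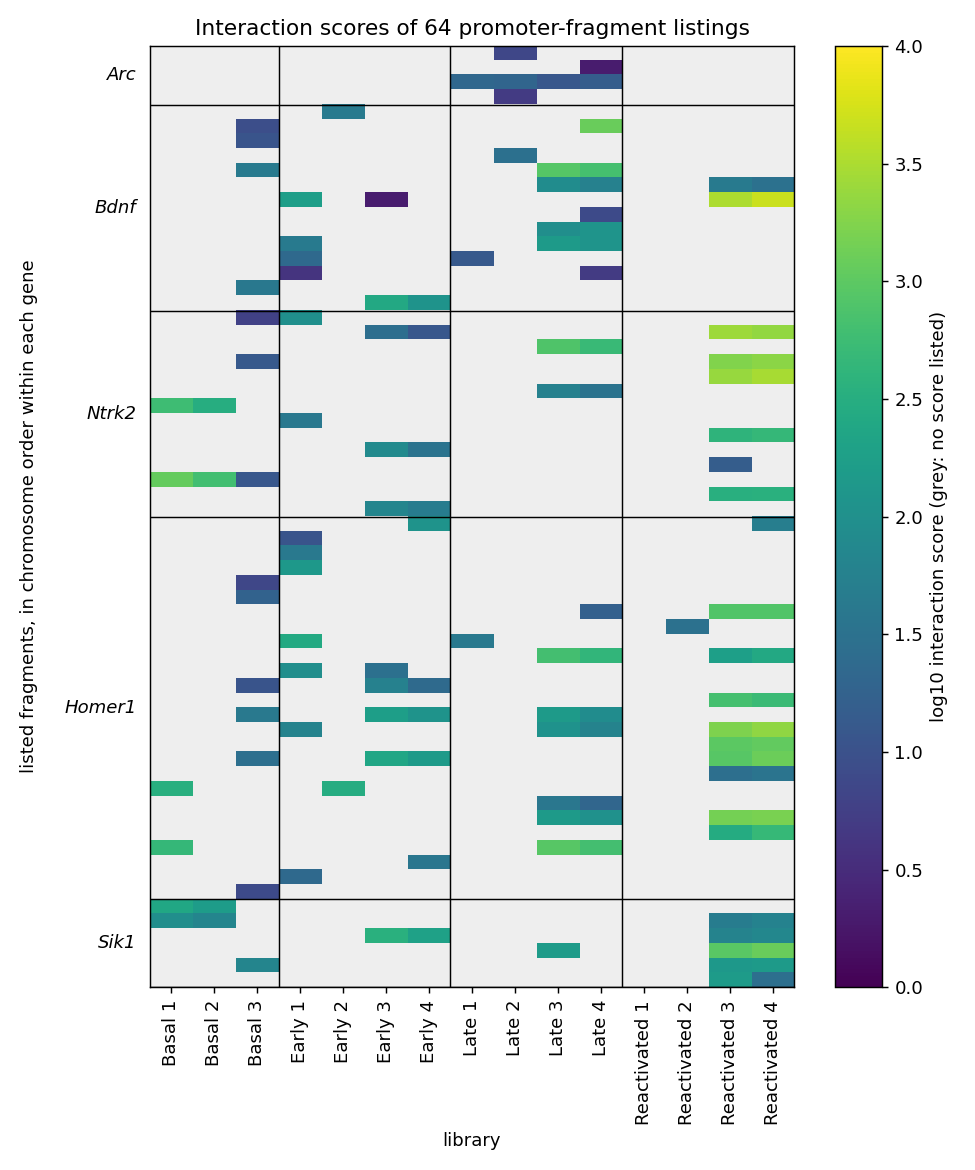
Interaction scores of the 64 listings (rows, by gene and in chromosome order) in the 15 libraries (columns); colour gives the log10 score and grey means that no score was listed. Arc was scored in Late libraries only, while the scores of Ntrk2, Homer1 and Sik1 in the Reactivated group lie in libraries 3 and 4 apart from 1 Homer1 fragment in library 2.

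The Arc promoter was scored with fragments of chromosome 15 in Late libraries and in no library of the other groups. Late libraries 1 to 4 scored the fragment from 74557103 to 74558248 (mm9, 1146 bp) at 22, 20, 12 and 15, against 0 in each Basal, Early and Reactivated library. Late therefore did not overlap any other group for it, and both Late library sets scored it. The fragments from 36840140 to 36840557 and from 76887533 to 76891001 were scored in Late library 2 alone, at 7 and 5, and the fragment from 74432217 to 74437502 in Late library 4 alone, at 2.

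The 7 Arc scores ran from 2 to 22. Late libraries 1 to 4 had median scores of 18, 19, 160 and 100, so the score of 22 and the score of 20 were above the median of their library and the other 5 Arc scores were below it. A gene's median position is here the median midpoint of its listed fragments, since promoter positions were not used. For Arc it falls midway between the 2 fragments lying nearest each other. These therefore lie 61.4 kb to either side of it by construction. The fragment of lowest coordinate lay 37.7 Mb away on the same chromosome. No Arc fragment was listed with another promoter.

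On the asinh scale, on which a score of 0 stays 0 and large scores behave as logarithms, the fragment from 74557103 averaged 3.51 ± 0.276 in Late (SD, n = 4) against 0 in Early. The difference of 3.51 (standard error 1.45) did not pass, at a limma adjusted p of 0.276. The standard error came from the variance trend over all listings, not from the fragment's own SDs of 0.276 and 0. The call turned on that estimate, with adjusted p from 9.14e-07 to 0.71 over the alternatives. Basal library 3 and Early library 1 had 0 for this fragment, so leaving either out did not change its difference. It passed at an adjusted p of 0.00460 without the variance trend, of 0.000327 without Basal library 3 and of 9.14e-07 without Early library 1, and was 0.71 when the libraries of a set were averaged. Averaged over its 4 fragments, Arc had a promoter mean of 1.28 ± 0.613 in Late against 0 in Early. That difference of 1.28 (standard error 0.389) had a limma adjusted p of 0.419.

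Bdnf, the ligand of the group, had 14 fragments, of which Basal libraries scored 4, Early libraries 6, Late libraries 9 and Reactivated libraries 2. Per library, Bdnf had 0, 0 and 4 scored fragments in Basal, 4, 1, 2 and 1 in Early, 1, 1, 4 and 7 in Late, and 0, 0, 2 and 2 in Reactivated. The groups overlapped, and in Late and Reactivated the higher numbers were those of libraries 3 and 4.

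The highest raw Bdnf scores were in Reactivated libraries 3 and 4. These had median scores of 304 and 310, against 100 in Late library 4. In multiples of the library median, the fragment from 109439928 reached 10.7 and 15.7 in those Reactivated libraries. The fragment from 108548314 to 108551342 reached 12.3 in Late library 4, with a score of 1230. Its only other score was 9 in Basal library 3. On chromosome 2 the fragment from 109439928 to 109443591 was scored 0, 0, 3255 and 4869 in Reactivated libraries 1 to 4, against 0 in each Late library. The same fragment had 176, 0, 2 and 0 in Early and 0 in each Basal library. The asinh means were 4.49 ± 5.19 in Reactivated and 0 in Late (SD, n = 4 each), a gap of 4.49 (standard error 1.92, limma adjusted p 0.141). Over the alternatives the adjusted p ran from 0.000379 to 0.502, and it was 0.0323 without Reactivated library 1 and 0.0316 without Reactivated library 2. Without Reactivated library 4 the gap was 2.93.

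The other Bdnf fragment scored in 4 libraries, from 109386034 to 109387646, had 0, 0, 44 and 31 in Reactivated against 0, 0, 87 and 57 in Late, and 0 in every Early and Basal library. It was listed also with Lin7c with identical scores, so that the score cannot be assigned to either promoter alone. The Bdnf fragments listed with Rpl35, Tcp11l1 and Ccdc34 were shared in the same way. All 13 member fragments listed with another promoter had identical scores for both and carry the same limit.

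A run of 3 neighbouring Bdnf fragments lies between 109505830 and 109511276, a stretch of 5.45 kb. The middle one had 95 and 116 in Late libraries 3 and 4 and no other score. The last had 151 and 119 in the same libraries and 45 in Early library 1, and the first had only a score of 8 in Late library 4. At a lower coordinate than that run, the fragment from 109285979 to 109290851 had 867 and 661 in Late libraries 3 and 4 and 45 in Basal library 3. The promoter mean of Bdnf was 1.19 ± 1.13 in Late (SD, n = 4) against 0.354 ± 0.613 in Basal (SD, n = 3). That was its widest gap between groups, at 0.84 (standard error 0.592, limma adjusted p 0.836). It was 0.38 without Late library 4 and 1.19 without Basal library 3.

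**Figure D2:**
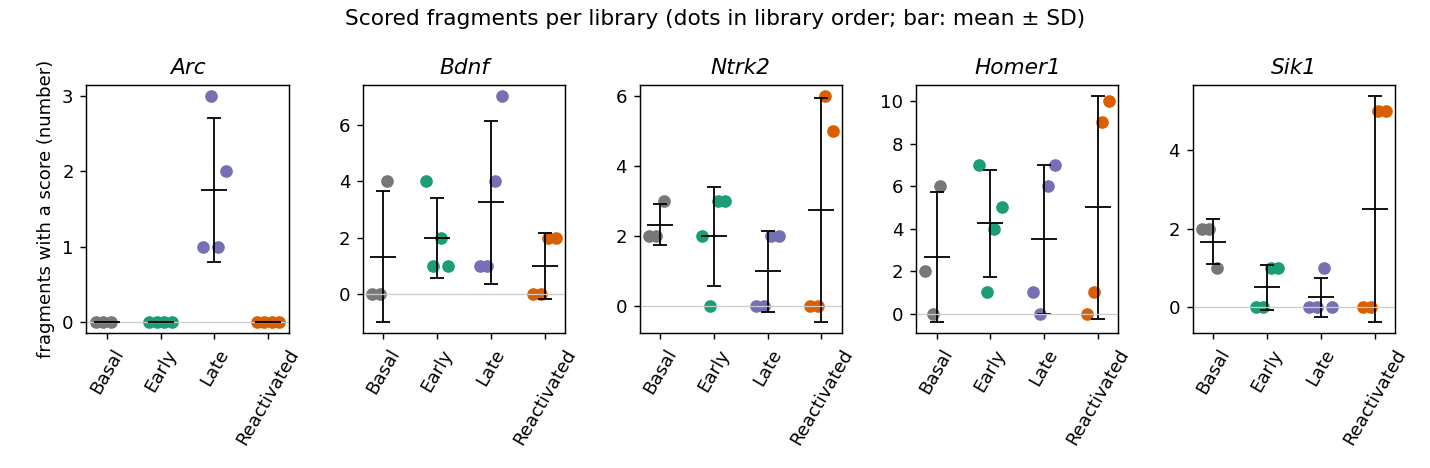
Number of fragments with a score for each promoter (panels) in each library (dots, in library order within a group); the long line is the mean and the whiskers the SD of the group (n = 3 for Basal and 4 for the others). Reactivated splits into libraries at 0 or 1 and libraries at 2 to 10 for the 4 genes other than Arc.

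Ntrk2, the receptor of BDNF, was scored in all 4 groups. Basal libraries scored 4 of its 14 fragments, Early libraries 5, Late libraries 2 and Reactivated libraries 6. Per library these were 2, 2 and 3 in Basal, 2, 0, 3 and 3 in Early, 0, 0, 2 and 2 in Late, and 0, 0, 6 and 5 in Reactivated. Every Basal library thus scored Ntrk2, while libraries 1 and 2 of Late and of Reactivated and library 2 of Early did not. All but 1 Ntrk2 fragment (from 24251085, listed with Lrrc16a) were listed with Ntrk2 alone.

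The fragment of chromosome 13 from 59192491 to 59192978, singled out after its values were seen, had scores in Basal only. They were 1144, 620 and 12 in Basal libraries 1 to 3, against 0 in the other 12 libraries, so Basal did not overlap any other group. The asinh means were 0 in Early and 6.01 ± 2.47 in Basal (SD, n = 3), a difference of -6.01 (standard error 1.81, limma adjusted p 0.185). Against Basal the difference was the same for Late and Reactivated, at adjusted p of 0.182 and 0.181. The fragment from 58955529 to 58957714 was scored only in Basal libraries 1 and 2, at 568 and 308.

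The fragment scored in the most libraries, from 24251085 to 24257438, lay 34.7 Mb from the gene's median position. It was listed with Lrrc16a with identical scores, so they cannot be assigned to Ntrk2 alone. It had 0, 0, 2624 and 2248 in Reactivated libraries, against 0 in each Late library. Early libraries had 0, 0, 28 and 12, and Basal libraries 0. The asinh means were 4.24 ± 4.90 in Reactivated and 0 in Late (SD, n = 4 each), a gap of 4.24 (standard error 1.89, limma adjusted p 0.142). The adjusted p ran from 6.73e-05 to 0.484 over the alternatives and was 0.0369 without Reactivated library 1 and 0.0361 without Reactivated library 2. Without Reactivated library 3 the gap was 2.80.

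Neighbouring Ntrk2 fragments were scored in different groups. A run of 3 fragments between 58916977 and 58924754 spans 7.78 kb. The first had 789 and 508 in Late libraries 3 and 4 and nothing elsewhere. The second, which begins 3 bp after the first ends, had 1764 and 2049 in Reactivated libraries 3 and 4 and 13 in Basal library 3, and the third had 2434 and 2992 in Reactivated libraries 3 and 4 alone. No library scored all 3 (0 of the 5 that scored any). A second pair, from 58947380 to 58957714, was scored by Late libraries 3 and 4 on one side and by Basal libraries 1 and 2 on the other.

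The Ntrk2 promoter mean was 1.44 ± 1.66 in Reactivated against 0.415 ± 0.48 in Late (SD, n = 4 each). Their difference of 1.02 (standard error 0.667) did not pass, at a limma adjusted p of 0.505. It was 0.51 without Reactivated library 3 and 0.58 without library 4 of that group.

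**Figure D3:**
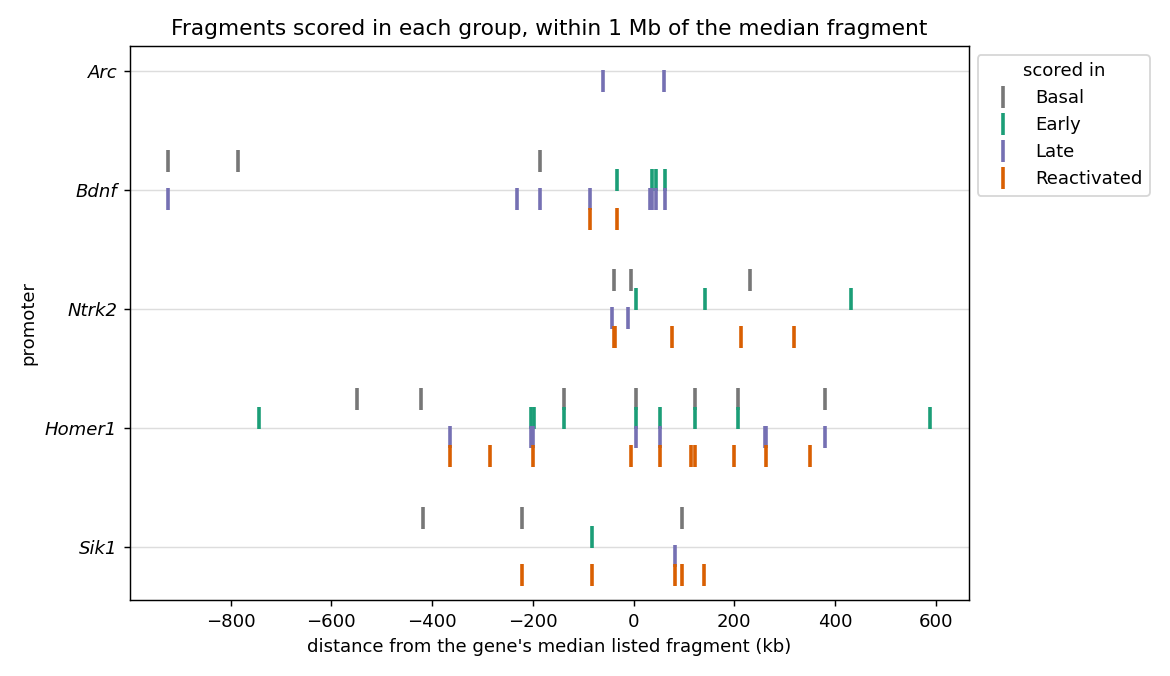
Fragments scored in each group (colour, 1 line of ticks per group) by distance in kb from the median listed fragment of their promoter; fragments more than 1 Mb away are not drawn. Arc carries ticks of Late alone, and 5 of the 6 Sik1 positions carry a tick of Reactivated. Each promoter has positions on both sides of its median by construction.

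Homer1, the scaffold gene, had the most fragments and was the only member with fragments scored in 5 libraries, of which there were 3. Basal libraries scored 8 of its 26 fragments, Early libraries 13, Late libraries 8 and Reactivated libraries 11. Per library the numbers were 2, 0 and 6 in Basal, 7, 1, 4 and 5 in Early, 1, 0, 6 and 7 in Late, and 0, 1, 9 and 10 in Reactivated. Within 1 Mb of the gene's median position lay 21 of the 26. The other 5 reached from 74.9 Mb below it to 14.4 Mb above it, all on chromosome 13.

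The fragment from 94019098 to 94020979 had 0, 0, 1710 and 2176 in Reactivated, against 0 in each Basal library. Early libraries had 61, 0, 0 and 0, and Late libraries 0, 0, 108 and 61. It was listed also with Papd4 with identical scores, so they cannot be assigned to Homer1 alone. The asinh means were 4.13 ± 4.77 in Reactivated (SD, n = 4) and 0 in Basal, a gap of 4.13 (standard error 2.28, limma adjusted p 0.298). The adjusted p ran from 0.0086 (without Reactivated libraries 1 and 2) to 0.799 over the alternatives, and the gap was 2.71 without Reactivated library 4. The listed fragment before it, from 93973136 to 93973995, listed also with Cmya5, had 0, 0 and 42 in Basal, 0, 0, 174 and 115 in Early, 0, 0, 149 and 87 in Late, and 0 in each Reactivated library. From the gene's median position these fragments lie 51.7 kb and 5.2 kb away, and Reactivated holds the highest scores of the first and none of the second.

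The fragment from 94085803 to 94093970 had 0, 0 and 29 in Basal, 0, 0, 237 and 153 in Early, 0 in each Late library, and 0, 0, 920 and 1278 in Reactivated. Its neighbour, from 94078674 to 94085800, was scored in Reactivated libraries 3 and 4 alone, at 972 and 1086. The fragment from 94231201 to 94233065 had 0, 0, 1456 and 1546 in Reactivated against 0, 0, 149 and 104 in Late, and the one from 93768450 to 93769939 had 0, 0, 180 and 259 in Reactivated against 0, 0, 641 and 422 in Late. Both were at 0 in every Early and Basal library. Late and Reactivated thus overlapped at 0 for both, and libraries 3 and 4 of Reactivated were above those of Late for the first and below them for the second.

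The Homer1 promoter mean was 1.29 ± 1.41 in Reactivated (SD, n = 4) against 0.435 ± 0.402 in Basal (SD, n = 3), which is a difference of 0.86 (standard error 0.703, limma adjusted p 0.662). It was 0.49 without Reactivated library 3, 0.41 without Reactivated library 4 and 1.29 without Reactivated library 1. Fragments listed with Amph, Mtx3 and Tbca as well brought to 5 the Homer1 fragments shared with another promoter.

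Sik1, the kinase gene, had all 6 of its fragments within 0.564 Mb of chromosome 17. Basal libraries scored 3 of them, Early libraries 1, Late libraries 1 and Reactivated libraries 5. Per library Sik1 had 2, 2 and 1 scored fragments in Basal, 0, 0, 1 and 1 in Early, 0, 0, 1 and 0 in Late, and 0, 0, 5 and 5 in Reactivated. Like Ntrk2, Sik1 was scored in every Basal library. Relative to all listings scored in a library, Sik1 had 0.432 and 0.412 fragments per 1000 in Reactivated libraries 3 and 4, against 0.438, 0.493 and 0.166 in Basal libraries 1 to 3 and at most 0.178 in any Early or Late library.

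In 4 libraries each, 2 Sik1 fragments were scored. Both were listed also with U2af1 with identical scores, so the scores cannot be assigned to Sik1 alone. The fragment from 31803163 to 31806319 had 0, 0, 349 and 198 in Early, against 0 in each Basal library, and it had 0, 0, 61 and 70 in Reactivated. The asinh means were 3.13 ± 3.62 in Early (SD, n = 4) and 0 in Basal, a gap of 3.13 (standard error 1.97, limma adjusted p 0.55). The gap was 1.99 without Early library 3. The fragment from 31661722 to 31669384 had 0, 0, 47 and 59 in Reactivated against 96, 65 and 0 in Basal, with 0 in each Early and Late library.

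The highest raw Sik1 scores were 944 and 1201 in Reactivated libraries 3 and 4, for the fragment from 31967103 to 31974513. It had 158 in Late library 3 and was listed also with Hsf2bp. In multiples of the library median, 944 and 1201 were 3.11 and 3.87. The fragment from 31976162 to 31991157 reached 5.08 in Basal library 3, with a score of 66. The promoter mean of Sik1 was 2.31 ± 2.67 in Reactivated against 0.24 ± 0.48 in Late (SD, n = 4 each). The difference of 2.07 had a limma adjusted p of 0.325 (standard error 0.937). It was 1.28 without Reactivated library 3 and 1.33 without Reactivated library 4.

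**Figure D4:**
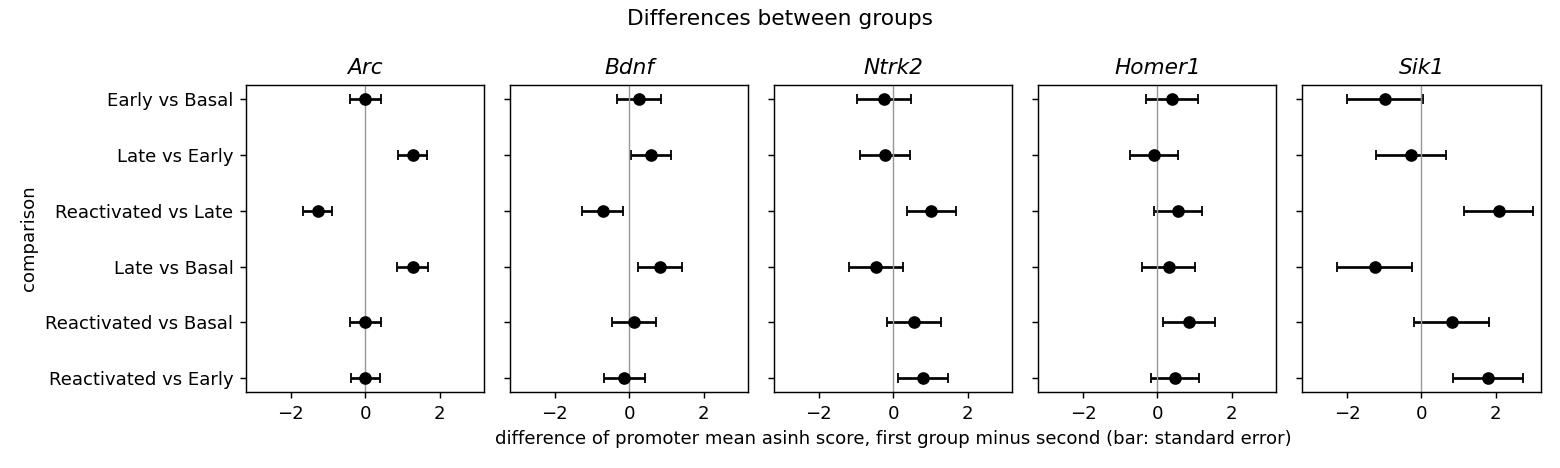
Difference of the promoter mean asinh score (x axis; first group minus second) with its standard error for the 6 comparisons (rows) and 5 promoters (panels). Arc departs from 0 in the 3 comparisons with Late, at 1.28 or -1.28, Sik1 reaches 2.07 in Reactivated against Late, and none of the differences passed at an adjusted p of 0.05.

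Across the 6 comparisons of groups, no member listing passed the limma test at an adjusted p under 0.05 (0 of 64 in each), and neither did any listing of the whole table (0% in each). At an unadjusted p under 0.05 there were 7 of 64 members in Early against Basal (10.6% of all listings), 11 in Late against Early (15.1%), 18 in Reactivated against Late (26.2%), 7 in Late against Basal (12.9%), 14 in Reactivated against Basal (20.3%) and 16 in Reactivated against Early (21.3%). The counts of 0 turned on single libraries. Without Basal library 3, 4 member listings passed in Early against Basal (5.76% of all listings), 5 in Late against Basal (6.15%), 3 in Reactivated against Basal (6.24%), 1 each in Late against Early (0.193%) and Reactivated against Late (0.193%), and 0 in Reactivated against Early (0.022%). Without Early library 1, 2 passed in Late against Basal (0.567% of all), 1 each in Reactivated against Basal (0.426%), Reactivated against Late (0.171%), Late against Early (0.256%) and Early against Basal (0.473%), and 0 in Reactivated against Early (0.099%). Without Reactivated library 1, 10 passed against Late (13.5% of all), 9 against Basal (10.9%) and 10 against Early (12.7%). Without Reactivated library 2, 10 passed against each of Late (13.6%), Basal (12.3%) and Early (12.9%). Of the promoter means, 0 of 5 members passed in each comparison. Over all promoters 0% passed in Early against Basal, 0.0903% in Late against Early, 0.0677% in Reactivated against Late, 0.0677% in Late against Basal, 0.0226% in Reactivated against Basal and 0% in Reactivated against Early. At an unadjusted p under 0.05 the promoter means numbered 0, 1, 2, 1, 0 and 0 of 5 in the same order, beside 5.83%, 6.95%, 13.8%, 8.2%, 11.2% and 11.3% of all promoters.

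In few listings did the libraries of the compared groups not overlap. In Late against Early and in Late against Basal, 1 member listing, that of Arc, was higher in every Late library, beside 0.286% and 0.314% of all listings, and in Reactivated against Late it was lower, beside 0.349%. In Early, Late and Reactivated against Basal, 1 member listing, the Ntrk2 fragment from 59192491, was lower in every library, beside 0.979%, 0.996% and 1.04% of all listings. The count was 0 of 64 for each remaining direction: higher in Early against Basal (0.157% of all), lower in Late against Early (0.0605%), higher in Reactivated against Late (0.00275%), against Basal (0.00275%) or against Early (0.00275%), and lower in Reactivated against Early (0.121%).

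The Reactivated comparisons turned on libraries 1 and 2, which scored 0 and 1 of the member listings. Without them, 18 member listings passed as higher and 1 as lower in Reactivated against Late, 17 and 1 in Reactivated against Basal, and 19 and 0 in Reactivated against Early, beside 25.1%, 24.9% and 25.1% of all listings. The whole table had the same skew, with 9020 listings higher and 101 lower, 8852 and 200, and 9066 and 61 in the same order. In Early against Basal 1 member passed (0.525% of all), in Late against Early 1 (0.173%) and in Late against Basal 2 (0.649%). The Reactivated group then consists of a single library set, libraries 3 and 4, which share 95.7% of the fragments of the smaller. In that fit the promoter means of Sik1 (4.38, limma adjusted p 2.29e-05), Ntrk2 (2.46, adjusted p 0.000272) and Homer1 (1.77, adjusted p 0.00908) were higher in Reactivated than in Late, and that of Arc was lower (-1.28, adjusted p 0.0153). Bdnf differed by -0.24 (adjusted p 0.776). Of all promoters, 43.8% passed in that comparison. Ntrk2, Homer1 and Sik1 also passed in Reactivated against Basal (45.6% of all promoters) and against Early (45%). No member promoter passed in the others (0.203% of all in Early against Basal, 0.294% in Late against Early and 0.519% in Late against Basal).

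The members' profiles over the 15 libraries are given as Pearson correlations of promoter means, as a description without a test. Ntrk2 had an r of 0.959 with Sik1 and of 0.878 with Homer1, and Homer1 and Sik1 had 0.742. Bdnf had 0.619 with Homer1, 0.293 with Ntrk2 and 0.0555 with Sik1. Arc had 0.275 with Bdnf, -0.18 with Homer1, -0.314 with Ntrk2 and -0.347 with Sik1. The points are the same libraries for every pair, and these differ widely in the number of listings scored. A gene's number of scored fragments was correlated with that number over the 15 libraries. The r was 0.922 for Homer1, 0.885 for Ntrk2, 0.728 for Sik1, 0.55 for Bdnf and 0.0121 for Arc. Whether this accounts for the correlations between members was not tested. Each member was also set against promoters that share no fragment with it. Predicted genes, microRNAs, olfactory receptors, clone names and the other members were left out. The 2 highest of 1088 (Homer1) to 3975 (Arc) candidates are named, and Arc was scored in only 4 of the 15 libraries. Arc was most like Tmem56 (0.972) and Psma3 (0.971), and Bdnf most like Clcn3 (0.926) and Mafa (0.921). Ntrk2 was most like Sugp2 (0.986) and Npr3 (0.986), and Homer1 most like P4ha1 (0.983) and Tcp11l1 (0.978). For Sik1 these were Scrt1 (0.991) and Glt8d1 (0.985).

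Other genes of the same pathways were read from lists. Of the activity-regulated effectors, 23 of 54 had a promoter in the table, of the neurotrophin receptor pathway 22 of 51, and of the partners of Arc, Homer1 and Sik1 14 of 32. In each list and each comparison 0 promoters passed in either direction. Over all promoters the median difference was 0 in Early against Basal, 0.06 in Late against Early, 0.18 in Reactivated against Late, 0.15 in Late against Basal, 0.31 in Reactivated against Basal and 0.26 in Reactivated against Early. In the same order the effectors had medians of 0.13, 0.15, 0.44, 0.23, 0.53 and 0.57, with 13, 15, 17, 15, 15 and 18 promoters higher and 9, 8, 6, 7, 7 and 5 lower. The neurotrophin pathway had medians of -0.08, 0.32, 0.05, 0.17, 0.27 and 0.31, with 7, 14, 12, 12, 16 and 17 higher and 14, 6, 10, 9, 5 and 4 lower. The partners had medians of 0.34, -0.09, 0.68, 0.24, 0.98 and 0.35, with 9, 5, 10, 8, 10 and 9 higher and 4, 8, 4, 5, 4 and 5 lower. The numbers of all promoters higher and lower are not given here, so these counts have no baseline.

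Genes with many listed fragments in each list are given by their mean number of scored fragments per library (SD, n = 3 for Basal and 4 for the others). Ier5, an immediate early gene with 31 fragments, had 6.33 ± 4.51 in Basal, 4.25 ± 3.2 in Early, 4.25 ± 3.2 in Late, with 4.25 ± 4.92 in Reactivated. Penk, which encodes proenkephalin and had 25 fragments, had 2.67 ± 0.577 in Basal, 2.25 ± 1.26 in Early, 3.50 ± 0.577 in Late, with 4.75 ± 5.50 in Reactivated. Both genes had means that differed by less than the spread in Reactivated libraries. Frs2, an adaptor that docks on Trk receptors and had 32 fragments, had 5 in every Basal library, 3.00 ± 3.56 in Early, 5.75 ± 1.26 in Late, with 4.00 ± 4.62 in Reactivated. Shc3, a neuronal adaptor of the same receptors with 22 fragments, had 4.00 ± 3.46 in Basal, 3.25 ± 2.36 in Early, 2.75 ± 1.50 in Late, with 5.75 ± 6.65 in Reactivated. Shank3, a scaffold partner of Homer1 with 12 fragments, had 1.33 ± 2.31 in Basal, 0.75 ± 0.5 in Early, 2.00 ± 0.816 in Late, with 0.5 ± 0.577 in Reactivated.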

How the data were processed

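The authors deposited an interaction score for each promoter and HindIII fragment in each library, per the file headers. The build is mm9, per the submitters' processing notes. The aligner, the score's calculation and its scaling were not given in the sources used here. A dot was read as 0, and read depth is unknown.

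Groups were taken from sample titles. Listings, and promoter means over listed fragments, entered limma 3.58.1 (R 4.3.3, statmod 1.5.0) as asinh(score), using empirical Bayes moderation set to robust with a trended variance, all 15 libraries in 1 fit, no filter, and Benjamini-Hochberg adjustment over all 36353 listings or 4429 promoters. The method was tested on simulated data. A library set joins same-group libraries whose overlap reached 40% of the smaller one's fragments. Python 3.11.15, pandas 2.3.3, numpy 2.4.6 and matplotlib 3.10.9 gave the descriptions and figures.

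Scores per library are printed for every Arc fragment and for fragments scored in 4 or more libraries; others were picked after their values were seen. Differences are printed for the widest comparison of each promoter and of its fragment scored in the most libraries. They are also printed for the Ntrk2 fragment from 59192491, picked after its values were seen. In the fit without Reactivated libraries 1 and 2, they are printed for the promoter means in Reactivated against Late. The 2 promoters most like each member had the highest Pearson correlation among candidates scored in at least as many libraries less 1. Candidates shared no fragment with the member. They excluded predicted genes, microRNAs, olfactory receptors, clone names and the other members. The members, lists and motifs were chosen with earlier results of these data known. Alternatives were another transform, a filter at 3 libraries, no trend, scaling, listing alone, library sets as means, fragments of 1 promoter, the replicate number as a block, and leaving out libraries. From each list the 2 genes with the most listed fragments were named, of which 1 is not reported here.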

Additional observations from a re-analysis of the deposited data

Results flagged for a closer look

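In 4 of 45 groups of 4 libraries looked at, 1 library's gap to its nearest neighbour exceeded the critical share of the group's range in Dixon's test. The rate of about 1 in 20 groups by chance assumes independent normal values and does not apply here. Any group at 0 in all libraries but 1 exceeds the critical share by construction. The Sik1 flags are the fragment number and the promoter mean of the same score. The Bdnf fragment from 109439928 to 109443591 was scored 176 in Early library 1, while Early libraries 2 to 4 had 0, 2 and 0. The Homer1 fragment from 94019098 to 94020979 was scored 61 in Early library 1 and 0 in the other Early libraries. Sik1 had 1 scored fragment in Late library 3 and 0 in the other Late libraries, which gave that library a promoter mean of 0.959 on the asinh scale against 0 in the others.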

How the results depend on the processing

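Values for all 6 comparisons follow this order: Early set against Basal, then Late against Early, next Reactivated against Late, then Late against Basal, next Reactivated against Basal, and last Reactivated against Early. The differences of each promoter mean and of its fragment scored in the most libraries kept their sign under the alternatives that gave a value. For those fragments and for the Arc promoter mean, every library of the reference group was at 0. Rescaling or leaving out libraries could therefore not reverse their sign. As reported, 0 listings were called in each comparison, and 0, 4, 3, 3, 1 and 0 promoters. Without the variance trend 142, 57, 59, 201, 146 and 5 listings were called, with 1, 1, 1, 2 and 1 member listings in the first 5, and 3 promoters in the first comparison, 5 in the third, 2 in the fifth and 1 in the last. With scores reduced to listed or not, 90, 271, 90 and 90 listings were called in Early against Basal, Late against Early, Late against Basal and Reactivated against Basal, each with 1 member listing, and promoters numbered 2, 7, 8 and 11 in the first 4 comparisons. Scaling to the library median called 9, 8, 9, 10, 5 and 1 promoters, and requiring 3 scored libraries called 11, 7, 6, 15 and 11 in the first 5. On log2(score + 1) there was 1 promoter in Late against Early and 1 in Reactivated against Late. With library sets as means there were 0 promoters in the middle 4 comparisons. With fragments of 1 promoter only there were 10, 11, 15 and 5 in those same middle 4, and the Homer1, Ntrk2 and Sik1 fragments whose differences are given have no value there. Without Reactivated libraries 1 and 2, the listings called were 191, 63, 9121, 236, 9052 and 9127, the member listings 1, 1, 19, 2, 18 and 19, the promoters 9, 13, 1940, 23, 2020 and 1991, and the member promoters 4, 3 and 3 in the Reactivated comparisons.

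Leaving out each library in turn, listings called ranged from 0 to 2093, 0 to 93, 0 to 4929, 0 to 2237, 0 to 4468 and 0 to 4688, member listings from 0 to 4, 0 to 1, 0 to 10, 0 to 5, 0 to 10 and 0 to 10, and promoters from 0 to 66, 0 to 12, 0 to 155, 0 to 68, 0 to 62 and 0 to 135, while member promoters stayed at 0. The highest listing counts came without Basal library 3 in Early and Late against Basal, without Early library 1 in Late against Early, and without Reactivated library 1 or 2 in the Reactivated comparisons. The cause of these changes was not tested.

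The replicate numbers did not pair libraries: 0 of 21 same-numbered pairs had a correlation of deviations over 0.1, and 6 of 15 libraries correlated best with their own number. With the number as a replicate block, 5 promoters were called in Reactivated against Late and 0 in Reactivated against Basal, and no member promoter or member listing was called. Read depth is unknown, so a missing score cannot be told apart from a contact too weakly sampled to be scored.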
